A study of Mus musculus with 27 samples.

Results

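The genes carried by mouse mitochondrial DNA were followed through the first days of the conversion of fibroblasts into induced neurons (iNs). All rows of the expression table placed on chromosome MT were taken, which gave 37 of the 54532 genes: 13 protein-coding genes, 2 rRNA genes and 22 tRNA genes. The cells were mouse embryonic fibroblasts (MEFs), pooled from 4 embryos at mid-gestation with the head and heart removed, at the first passage and of undetermined sex. They were wild type (WT), Per1-/- (B6.129-Per1tm1Drw/J) or Per2-/- (B6.129-Per2tm1Drw/J). Cells of every genotype had received lentivirus for neuronal reprogramming factors and for the doxycycline-dependent activator M2rtTA on day -3, and doxycycline was added with the N3 medium at day 0. RNA was collected on days 0, 2 and 4 with 3 biological replicates for each genotype and day, so that 27 libraries fell into 9 groups. The labels call every library induced neurons, whereas the methods place the day 0 harvest before reprogramming. Time with doxycycline, the change of medium and the age of the culture go together with the day and cannot be told apart.

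Mitochondrial DNA is a small circle that is copied into RNA from both strands as long precursors. Most of its mRNAs and both of its rRNAs are separated by tRNAs, and cutting the tRNAs out of the precursor releases the RNAs between them. The 13 proteins are all subunits of the respiratory chain and ATP synthase, the 2 rRNAs and 22 tRNAs serve the mitochondrial ribosome that makes those proteins, and every other protein needed comes from nuclear genes. Fibroblasts and neurons differ in how far they rely on respiration, and neurons are the more dependent.

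The libraries were made from RNA caught on poly-T beads and sequenced as paired ends without regard to strand. Values are FPKM, fragments scaled to gene length and to the library total. Depth ran from 15815013 to 24264097 assigned fragments, with a median of 19224804. The library check of the targeted genes gave a day 0 mean of 4.11 ± 0.866 FPKM of Per1 in Per1-/- cells against 5.78 ± 0.479 in WT cells (SD, n = 3 each). That log2 difference of -0.50 had an adjusted p of 0.771 (limma, Benjamini-Hochberg). Per2 was at 1.93 ± 0.0680 FPKM in the day 0 libraries labelled Per2-/- against 0.894 ± 0.0709 in WT (SD, n = 3 each). The paper reports from western blotting that each mutant's MEFs had lost the protein of the targeted gene. Because Per2 RNA was higher than in WT, these are called the libraries labelled Per2-/- throughout, and RNA values do not measure protein. Fibroblast markers summed to day means of 4299, 4260 and 5198 FPKM, and neuron markers to 89.3, 149.5 and 177.1 FPKM with Rbfox3 under 0.5 FPKM in every library. Macrophage markers, of which all 12 were detected, summed to day means of 401.8, 494.1 and 1021 FPKM, with Per1-/- group means of 523.7, 827 and 1736. Muscle markers summed to 237.3, 28.6 and 46.4 FPKM, with Ckm and Tnnc2 under 0.5 FPKM in every library. These mixtures moved with the day and, for the macrophage markers, with genotype. Their part in the results was not tested beyond a fit with the mean of log2(FPKM + 0.1) over the 12 macrophage markers as a covariate. In bulk RNA, fewer cells of a type and less RNA per cell cannot be told apart.

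The results turn on a few genes whose sequence is shown here from the GENCODE transcripts of GRCm38, 5′ to 3′. The first set holds 5 tRNA genes whose levels differed between days or groups. Their anticodons are in capitals, written as DNA. mt-Tp (MT:15356-15422), mt-Tc (MT:5192-5257) and mt-Tn (MT:5089-5159) lie on the minus strand and carry proline, cysteine and asparagine. mt-Tl1 (MT:2676-2750) and mt-Tw (MT:4950-5016) lie on the plus strand and carry leucine and tryptophan.
mt-Tp: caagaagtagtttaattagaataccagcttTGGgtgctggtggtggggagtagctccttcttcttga
mt-Tc: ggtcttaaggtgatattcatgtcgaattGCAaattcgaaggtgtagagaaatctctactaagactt
mt-Tn: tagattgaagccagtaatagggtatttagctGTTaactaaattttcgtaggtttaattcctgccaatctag
mt-Tl1: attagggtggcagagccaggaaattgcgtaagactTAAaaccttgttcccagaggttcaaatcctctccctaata
mt-Tw: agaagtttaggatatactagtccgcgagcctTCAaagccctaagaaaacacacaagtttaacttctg

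The second set shows how these mRNA genes end, since the tail added to the RNA is what poly-T beads hold. In the annotated genes mt-Cytb (end at MT:15262-15288), mt-Nd4 (MT:11518-11544) and mt-Co3 (MT:9364-9390), the last base, in capitals, is the first letter of a stop codon that the added A residues complete. mt-Nd1 (MT:3681-3707) ends in a stop codon written in the DNA, also in capitals.
mt-Cytb: aagacaaaatactaaaattatatccaT
mt-Nd4: caaaactaattacaggcctgacaataT
mt-Co3: acgtctccatttattgatgaggatctT
mt-Nd1: acagcgggagtaccaccatacataTAG

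The third set shows the mitochondrial genes beside the copies of them that lie in the nucleus, which bear on how far each gene can be measured with short reads. A segment of mitochondrial DNA, MT:6390-11042, 4653 bases long, matches 4654 bases of chromosome 1 (chr1:24611535-24616188, minus strand, GRCm38) where annotated transcripts could be compared. The first 81 bases of mt-Co2 (MT:7013-7093) are the same, base for base, as those of its annotated copy Gm28661 (chr1:24615485-24615565), and no base differs over the 681 bases compared.
mt-Co2: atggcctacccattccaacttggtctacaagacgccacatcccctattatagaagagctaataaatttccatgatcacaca
Gm28661: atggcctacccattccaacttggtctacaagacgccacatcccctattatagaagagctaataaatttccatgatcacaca
mt-Nd3 (MT:9459-9496) and its copy Gm28438 (chr1:24613082-24613119) differ by the substitution T3C, counted from the first base of mt-Nd3 and shown in capitals, and by no other base over 345.
mt-Nd3: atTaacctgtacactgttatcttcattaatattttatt
Gm28438: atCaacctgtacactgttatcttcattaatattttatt
The last 483 bases of mt-Co1 and the copy Gm29216 differ by A1066T, counted from the first base of mt-Co1, and the stretches shown are MT:6390-6428 and chr1:24616150-24616188.
mt-Co1: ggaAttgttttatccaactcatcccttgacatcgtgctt
Gm29216: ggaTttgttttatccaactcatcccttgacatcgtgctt

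The 37 genes took between 1.80% and 3.11% of the assigned fragments of a library, with a mean of 2.42%. The share was 2.33% ± 0.394 on day 0, 2.52% ± 0.151 on day 2 and 2.40% ± 0.303 on day 4 (SD, n = 9 each), and the ranges of the 3 days overlapped. A sum over the members was not tested. Nearly all of it came from 7 mRNAs, mt-Co1, mt-Cytb, mt-Nd1, mt-Nd6, mt-Nd5, mt-Nd2 and mt-Nd4, which held 97.1% ± 0.770 (SD, n = 27) of the mitochondrial fragments, and mt-Co1 alone held 38.0% ± 0.838.

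Levels fell into steps that followed position on the molecule. Per length, the 7 mRNA genes not wholly inside the copied segment had mean levels between 1270 and 5918 FPKM over the 27 libraries, with a median of 1634. The 6 mRNA genes wholly inside it, mt-Co2, mt-Atp8, mt-Atp6, mt-Co3, mt-Nd3 and mt-Nd4l, lay between 0.718 and 60.7 FPKM, with a median of 32.9. The ranges of the 2 sets did not overlap. mt-Co1 and mt-Co2, which encode the catalytic core subunits of cytochrome c oxidase and whose RNAs start on the same precursor, differed by a ratio of 101.5 on day 0, 117 on day 2 and 82.8 on day 4. The highest mRNA was mt-Co1 at 5918 FPKM, above mt-Cytb, the cytochrome b of complex III, at 3842 and mt-Nd1, a complex I subunit, at 3034. The genes mt-Nd6, mt-Nd5, mt-Nd2 and mt-Nd4, also of complex I, had means of 1634, 1523, 1498 and 1270 FPKM, and their ranges over libraries overlapped on every day.

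**Figure D1:**
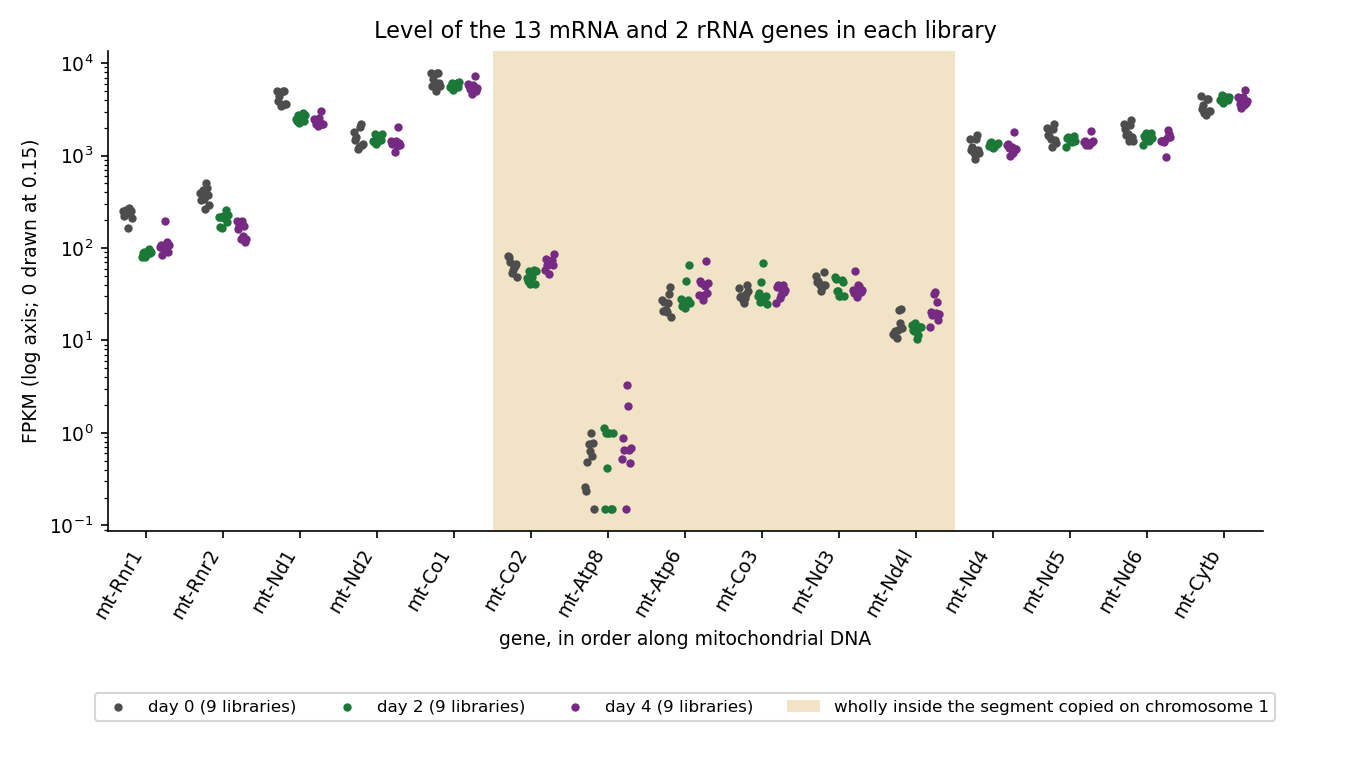
FPKM (log axis, values of 0 drawn at 0.15) of the 13 mRNA and 2 rRNA genes, in order along mitochondrial DNA, with 1 point for each of the 9 libraries of each day. The 6 mRNAs shaded as wholly inside the segment copied on chromosome 1 had mean levels of at most 60.7 FPKM, and the other 7 of at least 1270 FPKM.

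The tRNA genes did not show such a step. Of the 5 inside the segment, mt-Ts1, mt-Td and mt-Tk had at most 3 fragments in any library and did not pass the filter of a mean of at least 0.5 FPKM, while mt-Tg and mt-Tr did, with means of 21.9 and 23.8 FPKM. The 5 had means of 0.0257 to 23.8 FPKM with a median of 0.142, against 0 to 328.6 FPKM with a median of 18.2 for the 17 outside it, so here the ranges overlapped. Outside the segment 7 tRNA genes had means under 5 FPKM, mt-Tf, mt-Tv, mt-Ta, mt-Tm, mt-Tt, mt-Ti and mt-Tq. mt-Tf, the first gene after the promoter region, was listed at 0 in all 27 libraries. A mature tRNA is short and carries no long poly(A) tail, so a fragment counted for a tRNA gene may come from a longer RNA that spans it, and which RNA it came from cannot be told apart. In all, 33 of the 37 genes passed the filter, namely all 13 mRNAs, both rRNAs and 18 tRNAs.

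The share of a gene found in no other annotated transcript was low for 5 of the 11 genes wholly inside the copied segment, all of them mRNA genes. Of all windows of 50 bases, 0% of those of mt-Co2, 0.136% of mt-Co3, 0.475% of mt-Atp6, 1.21% of mt-Nd4l and 2.01% of mt-Nd3 were absent from every other annotated transcript. The partly copied mt-Nd4 and mt-Co1 had 37.8% and 48.9% such windows, mt-Nd2 and mt-Nd5 had 91.8% and 92.4%, mt-Rnr2 had 99.0%, and the remaining members had 100%. Those at 100% included mt-Atp8, at 0.718 FPKM, and the 5 tRNA genes mt-Ts1, mt-Td, mt-Tk, mt-Tg and mt-Tr inside the segment, for which no annotated nuclear transcript could be compared. mt-Atp8 also shares 43 bases with mt-Atp6, mt-Nd4l shares 7 with mt-Nd4, and mt-Nd5 shares 14 with mt-Nd6 on the other strand. How the authors treated reads that fit several places is not given in the sources used here, and its part in the low levels was not tested.

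**Figure D2:**
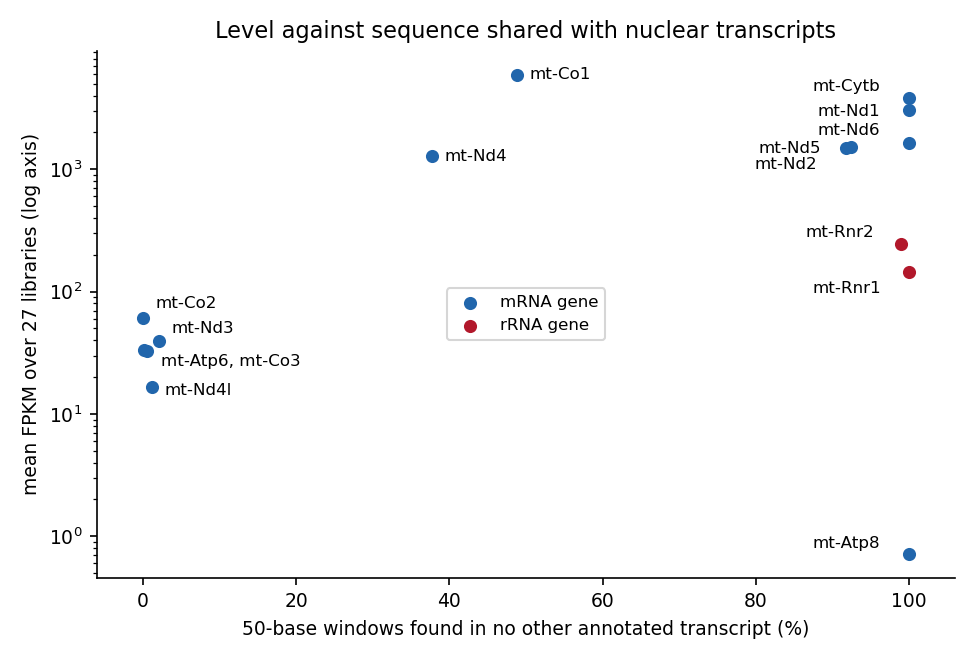
Mean FPKM over 27 libraries (log axis) against the percentage of 50-base windows found in no other annotated transcript, for the 13 mRNA and 2 rRNA genes. mt-Co2, mt-Co3, mt-Atp6, mt-Nd4l and mt-Nd3 sit at 0% to 2.01% unique windows and at 16.7 to 60.7 FPKM, while mt-Atp8 sits at 100% unique windows and 0.718 FPKM.

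The chromosome 1 copies of these genes were themselves listed. Gm28661 had a mean of 57.9 FPKM against 60.7 for mt-Co2. Gm10925 had 34.6 FPKM against 32.4 for mt-Atp6, which it matches over 678 bases without a substitution. Gm28437 had 16.7 FPKM against 33.4 for mt-Co3 (783 bases, 0 substitutions), Gm10222 had 9.79 against 16.7 for mt-Nd4l (294 bases, 0 substitutions), and Gm28438 had 5.63 against 39.2 for mt-Nd3. Where a copy ran against only part of a highly listed gene the levels differed widely, with Gm29216 at 16.3 FPKM against 5918 for mt-Co1 and Gm28439, which matches the first 876 bases of mt-Nd4 without a substitution, at 9.68 against 1270. A more diverged copy of mt-Co1 on chromosome 2, Gm13340 (chr2:22588103-22589647), with 37 substitutions over 1545 bases, had 1.496 FPKM. Reads from a gene and from an identical copy cannot be told apart, and the levels of the copied genes and of their copies are uncertain.

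From day 0 to day 2, taking the mean of the 3 genotypes, 8 of the 33 tested mitochondrial genes changed, 7 of them down: mt-Nd1, both rRNAs and the tRNAs mt-Tp, mt-Tc, mt-Tn and mt-Tv fell, and mt-Ty rose. mt-Tv was called lower in WT at -4.58 and in Per1-/- cells at -2.17, but higher in the libraries labelled Per2-/- at 2.57. It had at most 7 fragments in a library, and the Per1-/- call rested on 2 fragments in all on day 0 and 0 on day 2. The difference between the WT change and that of the libraries labelled Per2-/- did not pass the threshold (limma, Benjamini-Hochberg adjusted p = 0.147). The limits for a call were an adjusted p no higher than 0.05 together with 0.58 or more on the log2 scale in either direction (limma on log2(FPKM + 0.1), Benjamini-Hochberg over the 14932 genes tested). Among all tested genes 42% were called in this comparison, so a share of 8 in 33 lay under the background. From day 2 to day 4, 4 members were called against a background of 9.97%, with mt-Nd4l higher and mt-Tl1, mt-Te and mt-Ta lower. From day 0 to day 4, 18 members were called, 16 of them lower, where 45.6% of all genes were called, 3644 higher and 3161 lower. The median log2 change of the 33 genes was -0.21 on day 2 and -0.67 on day 4, against -0.01 over all tested genes at both times. Counts follow how values are scaled: the summed FPKM of a library averaged 356732, 272808 and 288856 on days 0, 2 and 4, and with every library set to a common sum the median of all genes shifted to 0.36 for day 2 and 0.29 for day 4 against day 0. Under that scaling 11 members were called on day 4, 8 of them lower, against 47.0% of all genes, 5203 higher and 1816 lower, so that the members' share went from above to below the background. Leaving out 1 library at a time gave 14 to 19 members on day 4.

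mt-Nd1 (ENSMUSG00000064341, MT:2751-3707), a membrane subunit of complex I, was the only mRNA called lower on day 2 or day 4 in the mean of the 3 genotypes. Its 9 day 0 libraries ran from 3428 to 5065 FPKM with a median of 3855. On day 2 they ran from 2241 to 2870 with a median of 2500, and on day 4 from 2107 to 3034 with a median of 2218. Every day 0 library was above every later one. The log2 change was -0.70 (SE 0.101; limma, Benjamini-Hochberg adjusted p = 2.13e-06) on day 2 and -0.80 (adjusted p = 2.91e-07) on day 4, and it was called in each genotype on both days, between -0.59 and -0.90. With a common sum the changes were -0.31 and -0.50, no longer past the fold limit but with the same sign.

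The other 6 highly listed mRNAs were not called on either day. mt-Cytb (MT:14145-15288) ran from 2771 to 4405 FPKM on day 0 with a median of 3167, from 3715 to 4562 on day 2 with a median of 4013, and from 3280 to 5122 on day 4 with a median of 3896. These ranges overlapped, and the log2 change was 0.27 (SE 0.103; adjusted p = 0.0236) on day 2 and 0.22 (adjusted p = 0.0524) on day 4, within the fold limit. It was above the fold limit on day 2 with a common sum, at 0.65. With the mean log2 level of the macrophage markers as a covariate, it was -0.01 on day 4. mt-Co1 had day means of 6502 ± 1098, 5693 ± 369 and 5560 ± 798 FPKM (SD, n = 9 each), and its day 4 change of -0.22 had an interval of -0.45 to 0.01. For mt-Nd2, mt-Nd4 and mt-Nd5 the day 4 changes were -0.16, 0.01 and -0.22 with intervals of -0.41 to 0.09, -0.21 to 0.24 and -0.42 to -0.01. The signs for mt-Co1, mt-Nd2 and mt-Nd5 turned with a common sum.

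mt-Nd6 is the only mRNA gene on the minus strand, and its RNA is known to lack a long poly(A) tail. It was nevertheless listed at day means of 1840 ± 349, 1571 ± 142 and 1492 ± 260 FPKM (SD, n = 9 each), close to its plus strand neighbour mt-Nd5 at 1670 ± 320, 1480 ± 115 and 1420 ± 160. Because strand was not kept, RNA of mt-Nd6 and RNA copied from the opposite strand across it cannot be told apart. After group means were removed, mt-Nd6 followed mt-Nd5 most closely of the mRNAs across the 27 libraries (r = 0.843), whereas with the other 5 high mRNAs r ran from 0.387 to 0.596. The 15 pairs among the high mRNAs other than mt-Nd6 had r of 0.709 at the lowest with a median of 0.925, which describes libraries whose values share 1 scaling. The Per1-/- day 4 replicate 2 library stood apart, with mt-Nd6 at 958.5 FPKM, the lowest of all 27, and a ratio of mt-Nd6 to mt-Nd5 of 0.741 where the mean of the day was 1.05. The day 4 change of mt-Nd6 was -0.30 (SE 0.110; limma, Benjamini-Hochberg adjusted p = 0.0168), within the fold limit, and -0.23 without that library.

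**Figure D3:**
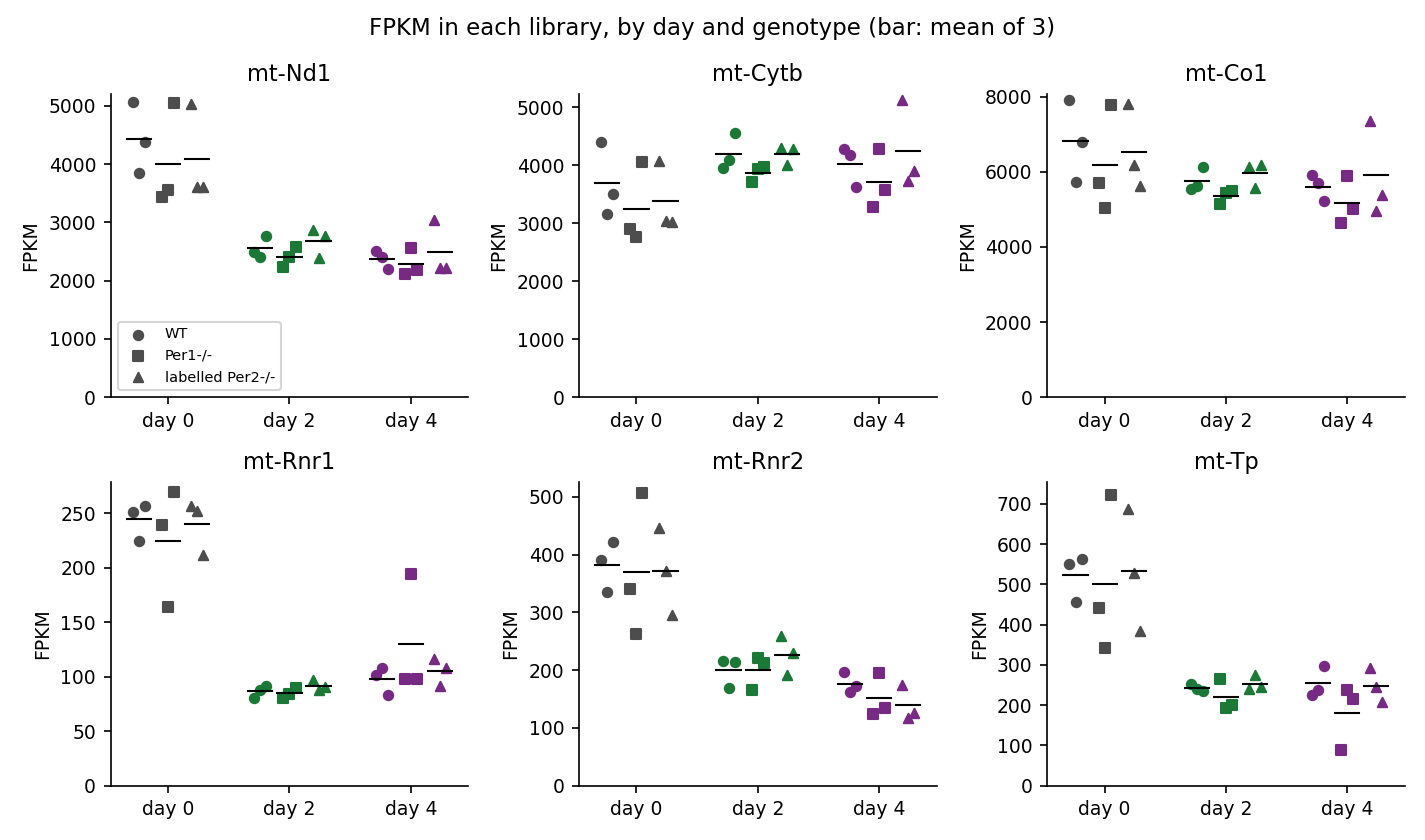
FPKM of 6 members in each of the 27 libraries, by day, with circles for WT, squares for Per1-/-, triangles for libraries labelled Per2-/- and bars for the mean of 3. Every day 0 library of mt-Nd1, mt-Rnr2 and mt-Tp lies above every day 2 and day 4 library, mt-Rnr1 has 1 high Per1-/- library at 195 FPKM on day 4, and mt-Cytb and mt-Co1 overlap between days.

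The 2 rRNAs, which form the large and small subunits of the mitochondrial ribosome, both fell. mt-Rnr2 (ENSMUSG00000064339, MT:1094-2675), the large rRNA, ran from 263 to 506 FPKM on day 0 with a median of 372, from 166 to 259 on day 2 with a median of 215, and from 117 to 196 on day 4 with a median of 162. No later library reached the lowest day 0 library. The log2 changes were -0.83 (SE 0.126; limma, Benjamini-Hochberg adjusted p = 4.84e-06) on day 2 and -1.26 (adjusted p = 9.02e-09) on day 4, and the step from day 2 to day 4 was -0.44 (adjusted p = 0.0124), within the fold limit. mt-Rnr1 (ENSMUSG00000064337, MT:70-1024), the small rRNA, had 236 ± 32.3 FPKM on day 0, 87.7 ± 5.35 on day 2 and 111 ± 32.8 on day 4 (SD, n = 9 each). Day 2 lay wholly below day 0, and on day 4 only Per1-/- replicate 2, at 195 FPKM, reached into the day 0 range of 164 to 269. The log2 changes were -1.42 (SE 0.114; adjusted p = 3.48e-10) on day 2 and -1.12 (adjusted p = 1.27e-08) on day 4, or -1.23 on day 4 without that library. Both rRNAs were called lower in each genotype on both days. On day 2 with a common sum, mt-Rnr1 was still called at -1.03 and mt-Rnr2 was at -0.44, within the fold limit. In poly-T selected RNA these values count the rRNA that was caught, and the share of rRNA with a tail was not measured.

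Ratios between members within a library do not depend on how the library was scaled, and 3 of them, chosen after their values were seen, are given as a description. mt-Nd1 over mt-Cytb was 1.22 ± 0.0418 on day 0, 0.622 ± 0.0283 on day 2 and 0.597 ± 0.0217 on day 4 (SD, n = 9 each). Its day 0 range of 1.15 to 1.28 lay wholly above the day 2 range of 0.586 to 0.669 and the day 4 range of 0.569 to 0.642. mt-Rnr2 over mt-Cytb was 0.109 ± 0.0131, 0.0511 ± 0.00613 and 0.0390 ± 0.00605. On day 4 it was 0.0313 to 0.0340 in the 3 libraries labelled Per2-/-, below the 0.0388 to 0.0474 of WT and the 0.0377 to 0.0457 of Per1-/-. On day 2 the order was different. The libraries labelled Per2-/- then had the highest group mean, 0.05396, against 0.04773 in WT and 0.05145 in Per1-/-. mt-Co1 over mt-Cytb went from 1.80 to 2.03 on day 0 to 1.35 to 1.45 on day 2 and 1.33 to 1.44 on day 4. For both mRNA ratios day 0 lay above the later days without overlap, while days 2 and 4 overlapped.

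**Figure D4:**
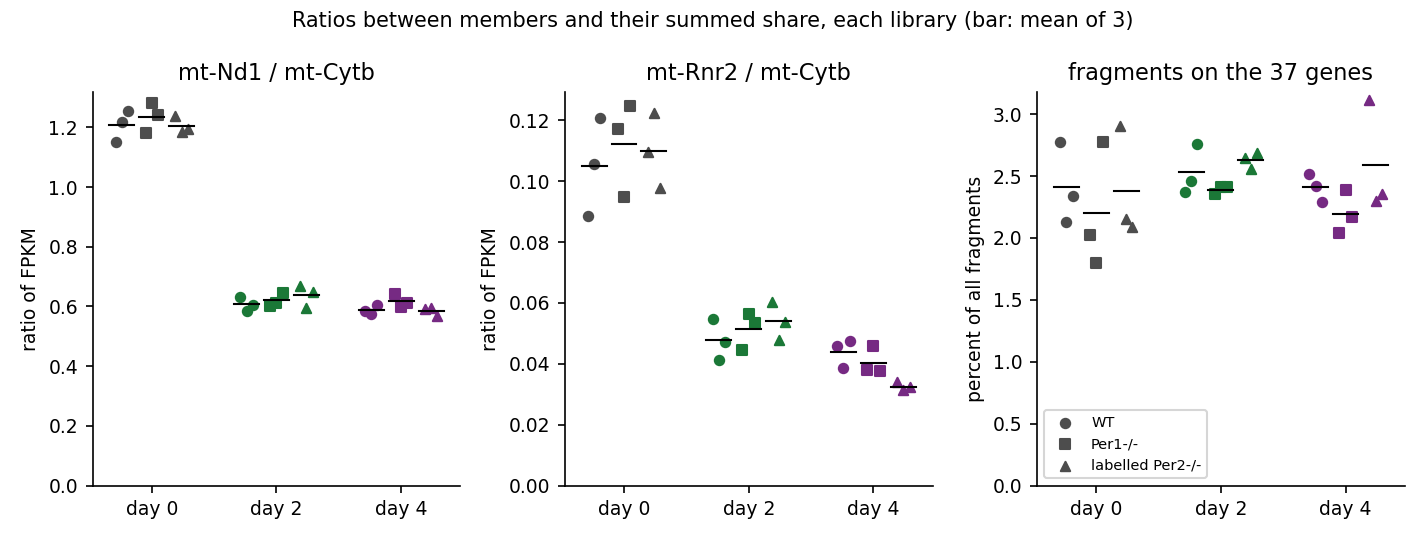
Ratio of mt-Nd1 to mt-Cytb, ratio of mt-Rnr2 to mt-Cytb, and percentage of all assigned fragments on the 37 genes, in each of 27 libraries by day and genotype, with bars for the mean of 3. The first ratio has a day 0 range of 1.15 to 1.28 and stays at or below 0.669 on both later days, while the percentage overlaps between days.

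Of the 18 tested tRNA genes, 13 were called on day 4, all lower, where 21.2% of all tested genes were called lower. They made up 13 of the 18 calls. With a common sum, 8 members of any kind were called lower on day 4. mt-Tp, for proline, had the highest mean level of the tRNA genes. It ran from 343 to 723 FPKM on day 0 with a median of 528, from 193 to 274 on day 2 with a median of 241, and from 88.5 to 297 on day 4 with a median of 237, so that day 0 was above both later days in every library. Its log2 changes were -1.09 (SE 0.168; limma, Benjamini-Hochberg adjusted p = 5.22e-06) and -1.22 (adjusted p = 1.07e-06). mt-Tc, for cysteine, had 439 ± 109, 204 ± 35.7 and 228 ± 28.7 FPKM (SD, n = 9 each), with log2 changes of -1.08 (adjusted p = 3.29e-07) and -0.91 (adjusted p = 3.17e-06). Both were called in each genotype on both days. mt-Tn, for asparagine, had 147 ± 37.9, 69.8 ± 22.6 and 84.9 ± 27.4 FPKM and log2 changes of -1.10 (adjusted p = 1.01e-05) and -0.80 (adjusted p = 3.32e-04). It was called in WT and in the libraries labelled Per2-/- but not in Per1-/- cells, at -0.48 on day 2 against -1.53 in WT, and the difference between those changes did not pass the threshold (1.05, SE 0.434; limma, Benjamini-Hochberg adjusted p = 1.00). These 3 genes are among the 8 tRNA genes on the minus strand, of which mt-Ty was called higher on day 2.

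mt-Tl1, for leucine, sits between the large rRNA and mt-Nd1. It had 72.9 ± 14.1 FPKM on day 0, 52.5 ± 11.2 on day 2 and 29.5 ± 11.7 on day 4 (SD, n = 9 each), and no day 4 library reached the lowest day 0 library at 58.1. Its neighbours mt-Rnr2 and mt-Nd1 were called on day 2, whereas mt-Tl1 was called between day 2 and day 4, at -0.91 (limma, Benjamini-Hochberg adjusted p = 3.24e-04), and not between day 0 and day 2, at -0.48 (adjusted p = 0.0121). The day 4 change against day 0 was -1.39 (SE 0.164; adjusted p = 1.09e-07). Of the other tRNA genes among the 8 highest, mt-Th at -0.67, mt-Te at -0.84 and mt-Ts2 at -0.69 were lower on day 4, and mt-Tl2 at -0.38 (adjusted p = 0.0594) was not called. mt-Ts2 rested on Per1-/- day 4 replicate 2, which had 9.34 FPKM where the day median was 62.5, and mt-Th on WT day 4 replicate 1, since each call was lost without that library. Of the 10 tested tRNA genes below the 8 highest, 6 were called lower on day 4, from -0.70 for mt-Tr to -2.59 for mt-Tt. Several of these had only a few fragments, and mt-Tv had 36 over all libraries.

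**Figure D5:**
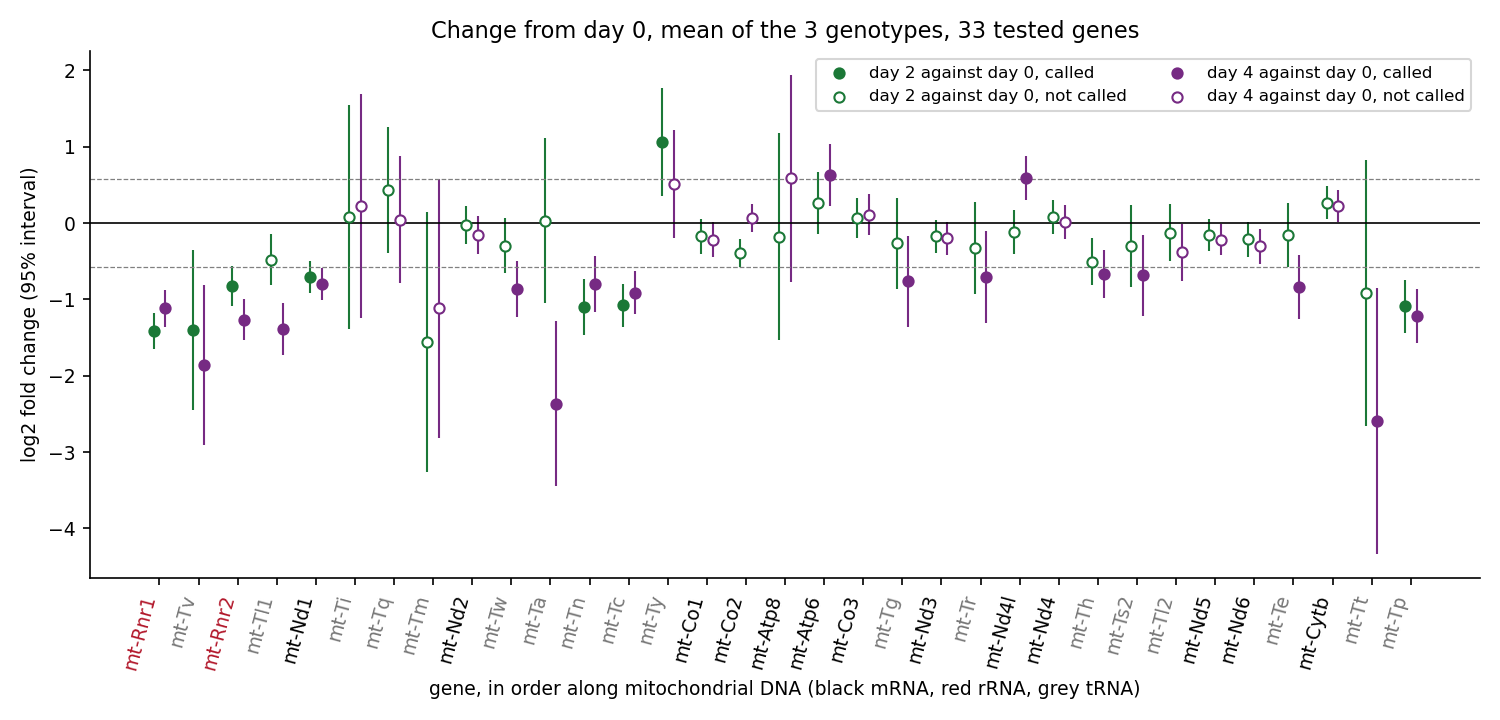
Log2 fold change against day 0 with its 95% interval for the 33 tested genes, in order along mitochondrial DNA, as the mean of the 3 genotypes; filled points were called and dashed lines mark a log2 fold change of 0.58 either way. On day 4, 16 filled points lie below 0 and those of mt-Atp6 and mt-Nd4l lie above it, and the wide intervals belong to tRNA genes with few fragments and to mt-Atp8.

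The 2 mRNAs called higher on day 4, mt-Nd4l and mt-Atp6, both lie in the copied segment. mt-Nd4l, a small subunit of complex I, ran from 10.6 to 21.8 FPKM on day 0 with a median of 13.1, from 10.5 to 15.5 on day 2 with a median of 13.1, and from 14.1 to 33.2 on day 4 with a median of 19.95. The days overlapped, the step from day 2 to day 4 was 0.71 (SE 0.138; limma, Benjamini-Hochberg adjusted p = 6.48e-04), and the day 4 change against day 0 was 0.60 (adjusted p = 5.41e-04), at the edge of the fold limit. That call was lost without any 1 of 9 libraries, with a pseudocount of 1 and with the macrophage covariate. mt-Atp6, the proton channel subunit of ATP synthase, had 25.4 ± 6.28, 31.8 ± 14.4 and 40.1 ± 13.4 FPKM (SD, n = 9 each), with overlapping days and a day 4 change of 0.63 (SE 0.196; adjusted p = 0.00588) that was lost without the day 4 replicate 1 or the day 0 replicate 3 labelled Per2-/-. mt-Co2 ran from 48.4 to 81.4 FPKM on day 0, from 40.9 to 58.3 on day 2 and from 52.2 to 86.2 on day 4, with log2 changes of -0.40 (adjusted p = 3.86e-04) and then 0.46 (adjusted p = 5.17e-04), both within the fold limit; in WT alone its day 2 change of -0.64 was called. mt-Co3, mt-Nd3 and mt-Atp8 had day 4 changes of 0.11, -0.20 and 0.59, none of them called, although mt-Co3 was called higher in Per1-/- cells on day 2 at 0.65.

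The annotated copies were followed over the same days. Gm10222, which matches mt-Nd4l, had day means of 8.47, 7.65 and 13.2 FPKM, and Gm28661, which matches mt-Co2, had 64.0, 44.6 and 65.2. The median log2 change of the 7 copies on chromosome 1 was -0.13 on day 2 against day 0. On day 4 against day 2, 4 of them were called higher, namely Gm10222, Gm29216, Gm28438 and Gm28439. Of all 14932 tested genes, 976 were called higher in that comparison. On day 4 against day 0, 2 of the 7 were higher, Gm10222 at 0.65 and Gm28439 at 0.59. That is near the 24.4% of all tested genes called higher. After removal of group means, the 5 copied mRNAs other than mt-Atp8 had r from -0.18 to 0.41 with the 7 high mRNAs across 27 libraries, with a median of 0.26, and r from -0.02 to 0.60 among themselves.

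Within single genotypes the day comparisons gave 7 to 8 called members on day 2 and 7 to 15 on day 4. In WT, 8 of 33 were called on day 2 and 7 on day 4, all lower, against backgrounds of 40.5% and 43.8%. In Per1-/- cells, 8 were called on day 2 (7 lower) and 15 on day 4 (14 lower), against 39.6% and 43%. In the libraries labelled Per2-/-, 7 were called on day 2 (6 lower) and 11 on day 4 (all lower), against 35.5% and 40.3%. mt-Nd1, mt-Rnr1, mt-Rnr2, mt-Tp and mt-Tc were in all 6 of these lists. The Per1-/- count on day 4 fell to 9 without Per1-/- day 4 replicate 2 and that on day 2 to 5 without Per1-/- day 2 replicate 3, and the count labelled Per2-/- on day 4 fell to 6 without its day 0 replicate 1.

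Whether the day changes differed between genotypes was tested directly. None of the 33 members was called for the difference from WT in the change to day 2 or day 4, in Per1-/- cells or in the libraries labelled Per2-/- (limma), where 0% of all genes were called in any of these 4 comparisons. At an unadjusted p under 0.05 there were 2 and 2 members for Per1-/- and 1 and 3 for Per2-/-, and voom called 0 as well. For mt-Nd1 the difference in the day 4 change from WT was 0.10 for Per1-/- with an interval of -0.41 to 0.62, and 0.19 for the libraries labelled Per2-/- with an interval of -0.33 to 0.70. For mt-Rnr2 these were -0.15 (-0.79 to 0.50) and -0.31 (-0.95 to 0.34).

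On the same day, genotypes were separated by 2 low tRNA genes, which are named here after their values were seen. Per1-/- and WT differed in 0 members on days 0 and 2 and in 1 on day 4, with backgrounds of 0.0134%, 0.0067% and 0.0268%. The libraries labelled Per2-/- and WT differed in 0, 1 and 0 members, with backgrounds of 0.0067%, 0.0268% and 0.0067%, and Per1-/- and those libraries in 0, 1 and 0, with backgrounds of 0.0201%, 0.0737% and 0.556% (limma). Where the count was 0, between 1 and 3 members had an unadjusted p under 0.05, and voom called 0. For Per1-/- against WT on day 4, 10 of the 33 members had an unadjusted p under 0.05, against 6.19% of all genes, and voom called 0.

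The day 4 gene was mt-Tw, for tryptophan. It had 22.4, 30.2 and 25.9 FPKM in WT, 5.08, 5.49 and 10.5 in Per1-/- cells, and 11.4, 11.4 and 7.01 in the libraries labelled Per2-/-. WT lay above both other groups without overlap, and the values rested on 28, 45 and 39 fragments in WT and 7, 6 and 16 in Per1-/- cells. The difference of Per1-/- from WT was -1.95 (SE 0.304; limma, Benjamini-Hochberg adjusted p = 0.0179), and that of the libraries labelled Per2-/- was -1.41 (adjusted p = 0.300). The call was lost when any of 5 of the 6 libraries compared was left out, all but Per1-/- day 4 replicate 3. It was also lost with the mean log2 level of the macrophage markers as a covariate.

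The day 2 gene was mt-Tv, for valine, which lies between the rRNAs. It had 5, 2 and 7 fragments in the libraries labelled Per2-/- on day 2 and 0 in all 3 libraries of WT and of Per1-/-. Set against a floor of 3 fragments over the group, its level was 4.96-fold that of WT and 4.97-fold that of Per1-/- cells. The fitted log2 difference from WT was 4.98 (SE 0.873, limma, Benjamini-Hochberg adjusted p = 0.0448). The floor covers only counting error in the groups with 0 fragments. The 14 fragments of the libraries labelled Per2-/- were taken as counted, and the spread between libraries was left out of these folds. Over the days, the 3 WT libraries had 12 fragments in all on day 0, 0 on day 2 and 5 on day 4. Both calls with mt-Tv were lost when any 1 library of the groups compared was left out.

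The nuclear genes that work with these members are given from lists of subunits and factors. Of 78 nuclear subunits of complexes I to V, 22 were called lower on day 2 and 19 on day 4, where 19.9% and 21.2% of all tested genes were called lower. No subunit was called higher, where 22.2% and 24.4% of all genes were. Their median log2 change was -0.45 on day 2 and -0.46 on day 4, or -0.44 and -0.45 relative to the median of all genes. Between days 2 and 4 the median was 0.02. By complex, the day 2 counts called lower were 4 of 37 for complex I, 1 of 4 for complex II, 4 of 9 for complex III, 6 of 11 for complex IV and 7 of 17 for ATP synthase. Atp5b, the catalytic beta subunit of ATP synthase, went from 315.5 FPKM on day 0 to 163.4 and 156.3, Uqcrq of complex III from 63.6 to 32.5 and 33.3, and Cox5a of complex IV from 39.7 to 20.8 and 18.8. With a common sum, 0 subunits were called lower on day 2 and 3 on day 4, with 1 higher each time. Of all 14932 tested genes, 1361 and 1816 were called lower under that scaling, and 5610 and 5203 higher. The medians of the subunits relative to all genes were then -0.42 and -0.44. The muscle markers, at 237.3, 28.6 and 46.4 FPKM, moved over the same days, and their part was not tested.

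Counts for the factors that make or handle mitochondrial RNA depended on scaling, as did those of all genes. Over all 14932 tested genes, 22.2% were called higher and 19.9% lower on day 2, and 24.4% and 21.2% on day 4. With a common sum, 5610 were called higher and 1361 lower on day 2, and 5203 and 1816 on day 4. Of 23 tested genes for processing, stability and decay, 7 were lower on day 2 and 8 on day 4, and with a common sum 1 and 2. Rexo2, a nuclease that clears short RNA in mitochondria, went from 50.5 to 17.3 and 15.9 FPKM (day 4 log2 change -1.66), and Lrpprc, which protects mitochondrial mRNAs and favours their poly(A) tails, from 13.6 to 7.56 and 7.59 (-0.83). Trmt10c, a part of the enzyme that cuts and modifies the 5′ ends of mitochondrial tRNAs, was at -0.83 on day 4. Of 9 transcription genes only Mrpl12 was called, at -1.05 on day 4, and of 12 genes for DNA replication and the nucleoid 1 rose and 1 fell on day 2 while 2 fell on day 4. With a common sum 2 transcription genes were called higher and 1 lower on each day, and the replication genes called were 6 higher and 1 lower on day 2 and 5 higher and 1 lower on day 4. Of 77 tested proteins of the mitochondrial ribosome, 23 were lower on day 2 and 30 on day 4, or 4 and 7 with a common sum, among them Mrps6 at -1.35 and Mrps18b at -1.30 on day 4. Of 31 translation factors, 5 were lower on each day, Tufm at -0.95 on day 4 among them, and with a common sum 0 were lower and 3 higher on day 2 and 2 lower and 4 higher on day 4.

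Of 10 tested regulators of mitochondrial biogenesis, 2 rose and 2 fell on both days, which is about the share of all genes called in each direction. Ppargc1a, the coactivator PGC-1alpha, went from 0.183 to 1.15 and 1.05 FPKM (day 4 log2 change 2.09). Esrrg went from 0.239 to 0.955 and 0.747 FPKM (1.34). Both had day 0 means under the filter of 0.5 FPKM and passed it through days 2 and 4. A rise was therefore the direction open to them, and their calls add no support. Myc went from 27.01 to 8.54 and 8.91 FPKM (-1.53), and Pprc1 was at -0.77.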

How the data were processed

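RNA-seq of 27 libraries was analysed from a table of FPKM values per gene that the authors deposited. They aligned reads to mm10 with HISAT2 (2.0.5) and assigned them to genes with featureCounts (1.5.0-p3). The handling of reads with several matches is not given in the sources used here. All columns of the table mapped to samples by the labels. FPKM times gene length came out as whole fragments in every library within a tolerance of 0.01, which gave the depth, between 15815013 and 24264097 fragments. Depth bounds the tRNA values most.

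The 14932 of 54532 genes whose mean reached 0.5 FPKM were tested with limma (3.58.1, R 4.3.3) with a trend, on log2(FPKM + 0.1), over 9 groups that share 1 estimate of spread, with Benjamini-Hochberg adjustment over all tested genes. The limits for a call were 0.05 for the adjusted p and 0.58 for the size of the log2 change. On this scale the log2 change of genes with few or 0 fragments depends on the pseudocount and can come out too small or too large. Since the deposited values were FPKM, the study's count test was not used, and voom on the recovered fragments was run as an alternative. p-values rest on the spread between the 3 biological replicates within each group, pooled over the 9 groups and drawn towards that of genes at a similar level.

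The members and the gene lists were chosen with earlier results of these data known. All 13 mRNAs, 2 rRNAs, the 8 highest tRNAs, the largest called genes of each list and the nuclear copies were named, and others after their values were seen. The alternatives were pseudocounts of 1 and 0.01, filters of 1 FPKM and none, nuclear size factors, a common sum over all or nuclear genes, voom on the fragments, a replicate block, only the groups compared, no fold limit, macrophage markers as a covariate and leaving out each library. Sequences were read from GENCODE transcripts of GRCm38, and windows of 50 bases were searched in 141767 transcripts. The scripts were tested on simulated data.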

Additional observations from a re-analysis of the deposited data

Results flagged for a closer look

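Among 132 combinations of a member, a day and a mutant genotype, 4 had every library of the mutant group moving one way from its own day 0 mean and every WT library the other way, all in the libraries labelled Per2-/-. The same count was not made over all tested genes, so whether 4 of 132 is more than other genes would give is not known. The difference itself was tested with limma and Benjamini-Hochberg adjustment, and none of the 4 passed. For mt-Tv, the valine tRNA, the difference in the change to day 2 was 7.15 on the log2 scale (SE 1.23, adjusted p = 0.147), on 0 to 7 fragments per library. For mt-Ta, the alanine tRNA, it was -1.97 on day 2 (SE 1.27, adjusted p = 1.00). For mt-Co2, whose sequence is shared with chromosome 1, it was 0.57 on day 4 (SE 0.216, adjusted p = 1.00). For mt-Nd4l, also in the copied segment, it was -0.51 on day 2 (SE 0.339, adjusted p = 1.00).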

How the results depend on the processing

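Of 485 counts and shares recomputed under other settings, 442 stayed within 1.5 times or 1 SD of the reported value and 43 moved; of the values of named genes, 2023 kept their side of the limits, 31 lost it and 13 gained it, and none that was called changed sign. The call for mt-Tv between the libraries labelled Per2-/- and WT on day 2 went to 0 with a pseudocount of 1 or 0.01, a filter at 1 FPKM, no filter, the replicate block, only the groups compared, voom and the macrophage covariate. The mt-Tv call between Per1-/- and those libraries went to 0 with a pseudocount of 0.01, a filter at 1 FPKM, only the groups compared, voom and the covariate, and the mt-Tw call went to 0 with the replicate block, only the groups compared, voom and the covariate. Day 4 against day 0 gave 11 members with a common sum over all genes or over nuclear genes, day 4 against day 2 gave 7 with no minimum fold, and Per1-/- on day 4 gave 9 with only the groups compared. The cause was not tested. Leaving out 1 library at a time gave 8 to 9 members on day 2, 14 to 19 on day 4 and 4 to 6 between them, 8 to 8 and 7 to 8 in WT, 5 to 9 and 9 to 16 in Per1-/- cells, and 5 to 8 and 6 to 11 in the libraries labelled Per2-/-. It gave 0 to 1 for mt-Tw, 0 to 0 for both mt-Tv calls, 0 to 1 for the day 2 difference in change of the libraries labelled Per2-/- (1 without WT day 0 replicate 3 or Per2-/- day 0 replicate 1), and a share of fragments of 2.39% to 2.44%. mt-Nd4l on day 4 lost its call without any of 9 libraries, with a pseudocount of 1 and with the covariate.

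Replicate numbers are shared between groups, and the main fit did not treat them as pairs. Same-numbered libraries of a genotype on different days had correlations of deviations from -0.02 to 0.29, with 14 of 27 over 0.1. For differently numbered libraries they ran from -0.21 to 0.09, with 0 of 54 over 0.1. Of 27 libraries, 25 correlated best with a same-numbered one, and 20 had both same-numbered ones above every other. Same-numbered libraries of a genotype were therefore more alike, which the main fit did not model. With the replicate block, 9 members were called on day 2, 4 between days 2 and 4 and 18 on day 4. Depth limits the tRNA genes most, of which mt-Tv had at most 7 fragments in a library.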
